A study of Mus musculus with 2 samples.

Results

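Neuroblasts are immature neurons that still migrate, and 393 cells of this kind were found among 13466 cells of mouse brain tissue around an intracranial glioblastoma graft. A cell was kept if it had at least 1000 unique molecular identifiers (UMIs, each standing for 1 captured RNA molecule), at least 500 genes and at most 10% mitochondrial UMIs. A kept cell counted as a neuroblast if it had a UMI of at least 3 of 7 neuroblast genes (Dcx, Dlx6os1, Igfbpl1, Sp8, Sp9, Stmn2 and Tubb3), of no more than 2 of 6 mitosis genes (Mki67, Top2a, Birc5, Cdk1, Cenpf and Ube2c), and of no more than 1 of 5 genes that mark microglia, oligodendrocytes, endothelial cells, astrocytes or ependymal cells (P2ry12, Mog, Cldn5, Aqp4 and Tmem212). These 18 genes chose the cells, so their levels are given as a description only.

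The series compared a control host and a host that lacked Plexin-B2 in cells with Cre recombinase (cKO), with 1 library each. Plexin-B2 is a receptor for class 4 semaphorins. The control was Cx3cr1 CreER/+ Plxnb2 fl/+, so it carried 1 floxed allele although its title calls it wild type, and the cKO was Cx3cr1 CreER/+ Plxnb2fl/fl. Both were on a C57BL/6 background, and in both the CreER is driven from the Cx3cr1 locus, which is active in microglia and macrophages and not in neuroblasts. Both received KR158 cells, a mouse glioblastoma line, and tamoxifen at 100 mg/kg every other day, begun 3 days ahead of the graft and kept up to week 8. Tissue within 1 mm of the injection site was dissociated with papain, cleared of debris with Percoll and of red blood cells by lysis, and no sort is described. No source used here gives the ages of the mice.

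In the adult rodent brain, neural stem cells in the wall of the lateral ventricle give rise to dividing progenitors, and these give rise to neuroblasts. Neuroblasts move in chains along the rostral migratory stream to the olfactory bulb, where most become GABAergic interneurons. Dlx, Sp8 and Sp9 transcription factors direct this lineage, and doublecortin (Dcx), stathmin 2 (Stmn2) and class III beta-tubulin (Tubb3) act on the microtubules of growing and moving neurons. Neuroblasts of this stream can still divide.

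The deposited control table held 64756949 UMIs in 10942 barcodes, each with at least 500 UMIs, while the cKO table held 63785513 UMIs in 2377349 barcodes, so only the cKO table was unfiltered. Of the cKO UMIs, 20.6% lay in barcodes with fewer than 500 UMIs. Plxnb2 was read first as a check of the genotype. In microglia it had 1447 UMIs (208 CPM, the UMIs of a gene per 1000000 UMIs) in control and 199 UMIs (39.5 CPM) in cKO. In neuroblasts it had 50 UMIs (65.5 CPM) in control and 88 UMIs (61.2 CPM) in cKO neuroblasts, a log2 ratio of -0.10 (95% interval -0.62 to 0.43). Neuroblasts thus had near-equal Plxnb2 levels in both libraries, with a UMI in 28.3% of control and 30.2% of cKO cells. Each genotype is 1 library, so genotype, animal and library cannot be told apart, there is no replicate check, and no test between the groups is possible. Every interval below covers counting error only.

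Some neuroblast transcripts contain microRNA hairpins, and 2 such host transcripts are shown with the mature sequences because they carry well-known neuronal microRNAs. They were chosen after their values were seen. Of 414 transcripts at least 4-fold higher in neuroblasts than in the other cells of both libraries, 29 held a hairpin of the RefSeq table (GRCm38.p6) on the same strand, with 34 hairpins in all. C130071C03Rik, a long intergenic RNA at chr13:83721381-83884194 on the plus strand (mm10, GENCODE vM21), contains Mir9-2 at chr13:83738814-83738885. Gm4258, a processed transcript at chr1:137898595-138000384 on the plus strand, contains Mir181a-1 at chr1:137966455-137966541 and Mir181b-1 at chr1:137966639-137966718. The mature sequences are written 5′ to 3′, with the seed (bases 2 to 8) in capitals:
mmu-miR-9-5p: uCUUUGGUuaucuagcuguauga
mmu-miR-9-3p: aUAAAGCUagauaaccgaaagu
mmu-miR-181a-5p: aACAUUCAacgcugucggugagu
mmu-miR-181b-5p: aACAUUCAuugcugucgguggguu
The 5p products of miR-181a and miR-181b share the seed ACAUUCA, while the 2 arms of miR-9 differ in theirs. RefSeq lists the same mature miR-9 and miR-181 sequences at further loci.

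C130071C03Rik had 217 UMIs in control neuroblasts (284 CPM) and 378 in cKO neuroblasts (263 CPM), against 36.6 and 30.5 CPM in all other kept cells. Gm4258 had 429 UMIs (562 CPM) and 810 UMIs (563 CPM), against 34.5 and 28.9 CPM. Both hosts were within their counting error between the libraries, at log2 ratios of cKO over control of -0.11 (-0.36 to 0.13) and 0.0027 (-0.17 to 0.17). Mir124a-1hg, the host of another neuronal microRNA at chr14:64587331-64593961 on the plus strand, had 261 UMIs (342 CPM) in control and 348 UMIs (242 CPM) in cKO neuroblasts, against 2.63 and 2.59 CPM in the other cells. Its log2 ratio between the libraries was -0.50 (95% interval -0.73 to -0.26), a lower level in cKO of less than 1.5-fold. Host transcripts were counted here, and the mature microRNAs themselves were not measured.

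Neuroblasts made up 145 of 8068 kept cells in control, or 1.80% (Clopper-Pearson 95% interval 1.52 to 2.11), and 248 of 5398 in cKO, or 4.59% (4.05 to 5.19). The cKO share was 2.80 percentage points higher. The part of the different filtering of the deposited tables in this difference was not tested. Other classes differed in number too, with 909 endothelial cells in control and 1265 in cKO, and 215 and 80 ependymal cells. The part of such differences in cell make-up was not tested either. Few cells lay at the limit of the rule. Among cells that met its other conditions, 5201 control and 3150 cKO cells had none of the 7 neuroblast genes, 39 and 43 had 2 and just missed the rule, 7 and 8 had 3 and just met it, and 103 and 211 had 6 or 7. A further 52 control and 69 cKO cells met the neuroblast condition but were left out for mitosis genes, 13 and 9 for genes of another class, and 6 and 9 for both. No barcode was shared between the members of the libraries, while 8 were shared among all kept cells. The doublet caller Scrublet marked 8 control members (5.52%) and 11 cKO members (4.44%), and they were kept.

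**Figure D1:**
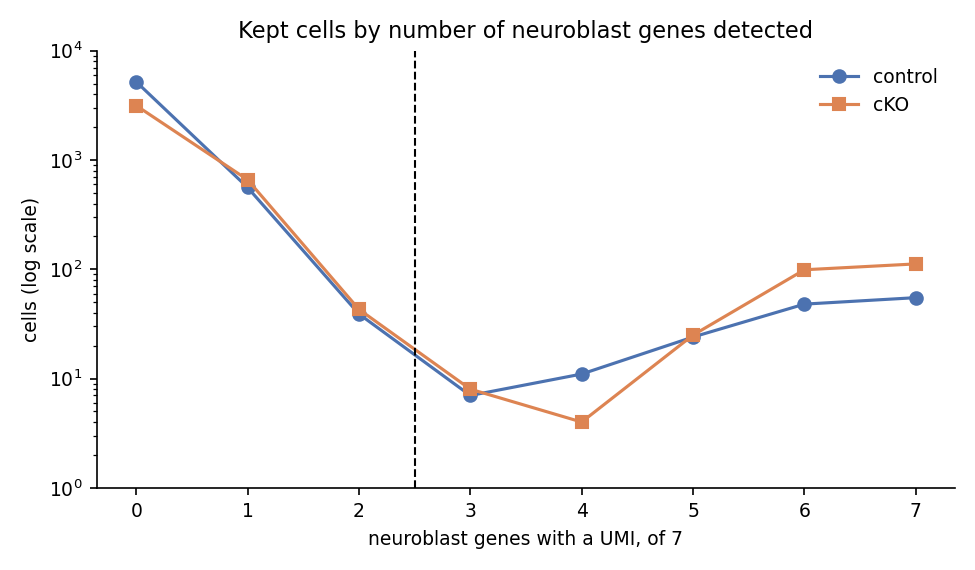
Number of kept cells (log scale) by the number of the 7 neuroblast genes with a UMI, among cells that met the mitosis and other-class conditions, for control (circles) and cKO (squares). The dashed line is the rule; counts fall to between 4 and 11 cells at 3 and 4 genes and climb again to 55 control and 112 cKO cells at 7 genes.

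Depth was similar in the members of the libraries. The median neuroblast had 4652 UMIs and 1943 genes in control and 5022 UMIs and 2088.5 genes in cKO, with 3.25% and 3.30% mitochondrial UMIs. All neuroblasts together gave 762865 UMIs in control and 1437646 in cKO.

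The 7 neuroblast genes that chose the cells were found at like levels in both libraries, except Sp9. Dcx had 621 UMIs (814 CPM) in control and 1199 UMIs (834 CPM) in cKO neuroblasts. It was detected in 90.3% of control and 96.0% of cKO members, and the other kept cells, cycling neuroblasts included, had it at 5.88 and 10.8 CPM. Stmn2, which destabilises microtubules in growth cones, had 1962 UMIs (2572 CPM) in control and 3824 UMIs (2659.9 CPM) in cKO neuroblasts. Tubb3 had 1138 UMIs (1492 CPM) in control and 2501 UMIs (1739.6 CPM) in cKO neuroblasts. Igfbpl1, a secreted protein of the insulin-like growth factor binding family, had 749 UMIs (982 CPM) in control and 1591 UMIs (1107 CPM) in cKO neuroblasts, and Dlx6os1, a long non-coding RNA that runs antisense to Dlx6, had 1164 UMIs (1526 CPM) in control and 2331 UMIs (1621 CPM) in cKO neuroblasts. All these 5 lay within 1.5-fold between the libraries, with log2 ratios from 0.035 (Dcx) to 0.22 (Tubb3).

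Sp8 and Sp9 encode related zinc-finger factors of this interneuron lineage. Sp8 had 168 UMIs (220.2 CPM) in control and 332 UMIs (231 CPM) in cKO neuroblasts and was found in 55.2% of control and 56.0% of cKO cells, so nearly equal in both. Sp9 had 237 UMIs (311 CPM) in control and 659 UMIs (458 CPM) in cKO neuroblasts and was found in 68.3% of control and 84.3% of cKO cells, a log2 ratio of 0.56 (0.34 to 0.78), higher in cKO by slightly less than 1.5-fold. With every cell thinned to 1000 UMIs, which removes differences in depth, Sp9 had a UMI in 23.4% and 41.1% of control and cKO neuroblasts, and Sp8 in 22.8% and 20.6%. The astrocytes, which lack both and had a median of 4454.5 UMIs in control and 5088 in cKO, showed Sp9 in 0.110% and 0.0640% and Sp8 in 0.293% and 0.192% of thinned cells.

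The genes that the rule excluded were rare, as the rule demands. Mki67 had 1 UMI in all control and 9 UMIs in all cKO neuroblasts, and Top2a, a topoisomerase of dividing cells, had 27 and 48. The microglial receptor P2ry12 had 88 UMIs in control and 35 in cKO members, the myelin protein Mog 37 and 15, and the endothelial junction protein Cldn5 8 and 179. The P2ry12 UMIs sat in few cells, with 83.0% of control and 82.9% of cKO UMIs in the 5 highest cells of each library. Mog was found in 9 control and 7 cKO members, and Cldn5 in 8 and 25.

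Outside the rule, neuroblasts carried the programme of young GABAergic neurons. The comparison with other cells is a description, since neuronal genes chose the cells. Of 6375 genes measured (mean of at least 20 CPM over the libraries), 1863 or 29.2% were at least 1.5-fold higher in neuroblasts than in all other kept cells of the same library, with intervals excluding equality, in both libraries, and 955 or 15.0% were lower. Of 20 neuroblast genes that the rule did not use, all 20 were measured and 19 were higher. Of 24 genes of the GABAergic interneuron lineage, 19 were measured and 16 were higher, while none of 12 glutamatergic lineage genes reached the measured level. A UMI of Eomes, Neurod1, Tbr1, Slc17a6 or Slc17a7, which act in glutamatergic neurons or their progenitors, was found in 2 of 145 control and 7 of 248 cKO members.

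Gad2, which makes GABA, had 263 UMIs (345 CPM) in control and 538 UMIs (374 CPM) in cKO neuroblasts, against 3.24 and 4.72 CPM in the other cells. Gad1, the other GABA-making enzyme, had 120 UMIs (157 CPM) in control and 209 UMIs (145 CPM) in cKO neuroblasts, against 2.80 and 2.87 CPM. At least 1 of the pair was detected in 82.8% of control and 84.7% of cKO members. Dlx5 had 149 UMIs (195 CPM) in control and 351 UMIs (244 CPM) in cKO neuroblasts, against 2.61 and 4.30 CPM, and the antisense RNA Dlx1as had 94 UMIs (123 CPM) in control and 189 UMIs (131 CPM) in cKO neuroblasts, against 1.60 and 2.62 CPM, although no source used here says how strands were counted and its reads may come from Dlx1. The transcription factor Dlx1 itself had 408 UMIs (535 CPM) in control and 919 UMIs (639 CPM) in cKO neuroblasts.

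Other genes with the highest enrichment had roles in neuronal differentiation, adhesion and movement. The splicing factor Srrm4, which drives neuronal microexons, had 119 and 162 CPM in control and cKO neuroblasts and 1.45 and 2.03 CPM in other cells. Myt1l, a repressor of non-neuronal genes, had 147 and 147 CPM against 1.75 and 2.20 CPM, and Scrt1, a neuronal zinc-finger repressor, had 121 and 106 CPM against 1.10 and 1.54 CPM. The RNA-binding protein Celf3 had 110.1 and 144 CPM against 1.81 and 2.27 CPM, and its fellow Elavl2 had 277 and 248 CPM against 4.11 and 6.00 CPM. Nrxn3, a presynaptic adhesion protein, had 1709 and 1531 CPM against 31.5 and 34.9 CPM, and the zinc-finger factor Bcl11a had 719.7 and 620.5 CPM against 9.35 and 14.2 CPM. Crmp1, a collapsin response mediator that links semaphorin signals to the cytoskeleton, had 332 and 321 CPM against 4.36 and 7.40 CPM, and its relative Dpysl5 had 152 and 191 CPM against 1.83 and 2.41 CPM. Tiam2, a Rac activator, had 413 and 509 CPM, the G-protein subunit Gng3 282 and 378 CPM, and the editing-enzyme relative Adarb2 134 and 179 CPM. None of these 12 genes differed by 1.5-fold between the libraries over all members.

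**Figure D2:**
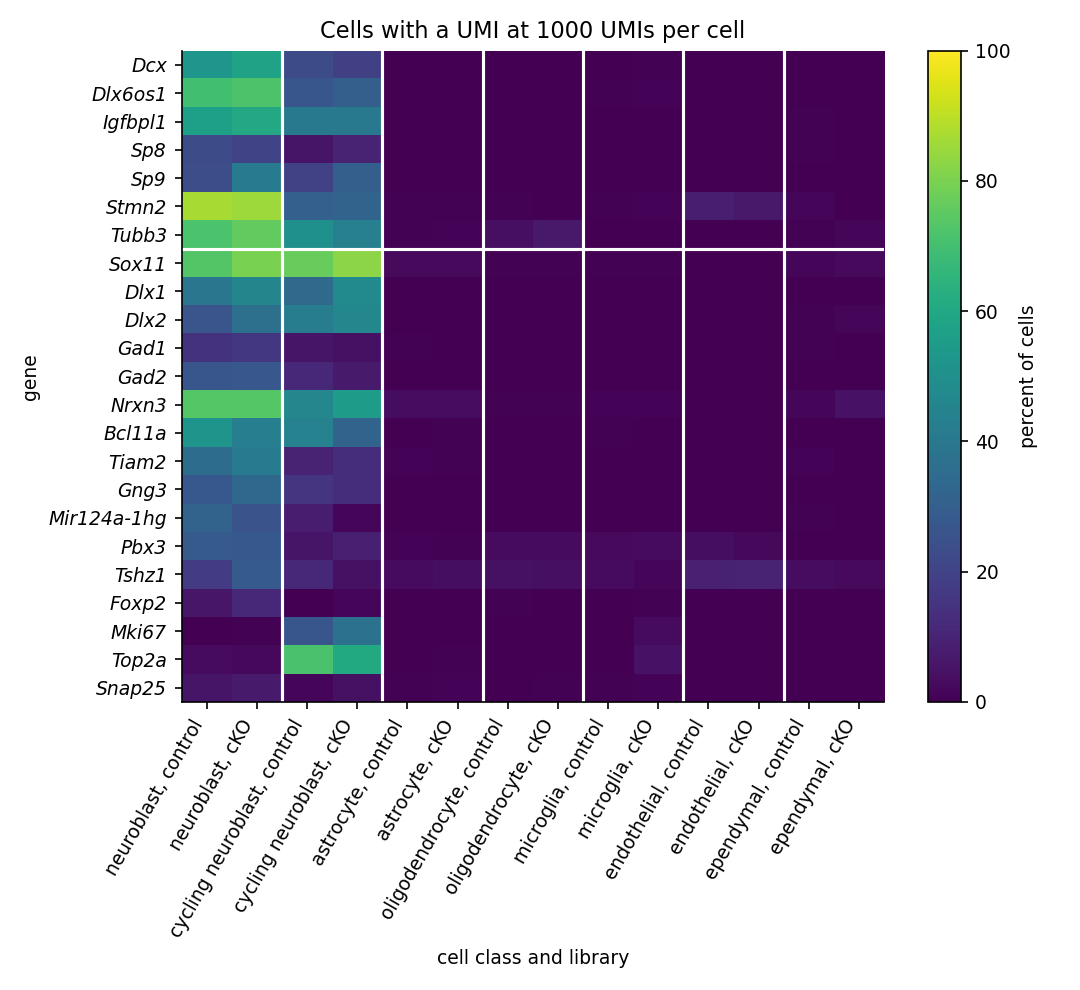
Percent of cells with a UMI after thinning each cell to 1000 UMIs (colour), for 23 genes (rows) in 7 cell classes of each library (columns). The first 7 rows are the neuroblast genes of the rule; in these and the rows down to Foxp2, the neuroblast column of each library is above the columns of its 5 classes other than cycling neuroblasts, where Stmn2 reached at most 8.25% and Tshz1 9.41%, both in endothelial cells.

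Cells that met the neuroblast condition but had more than 2 mitosis genes are called cycling neuroblasts here. They were deeper, with a median of 11250.5 UMIs in control and 13054 in cKO. Of 5987 genes measured in both classes, 622 or 10.4% were at least 1.5-fold higher in neuroblasts than in cycling neuroblasts in both libraries and 707 or 11.8% were lower. Of 20 cell-cycle genes outside the rule all 20 were lower, which follows in part from how the classes were divided. Of 12 measured progenitor genes 6 were lower, among them Egfr, Gsx2, Nes, Fabp7 and Insm1, and none was higher.

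Neuronal genes were higher in neuroblasts than in the cycling class more often than the 10.4% of all genes. Both classes met the same condition on the neuroblast genes of the rule, and the cycling cells were deeper. A deeper cell can meet that condition at a lower CPM of these genes, and the part of this in the ratios below was not tested. Of 20 neuroblast genes outside the rule 14 were higher and none lower, and of 18 measured GABAergic lineage genes 9 were higher and none lower, among them Gad1 (log2 2.23 and 1.85), Gad2 (1.78 and 1.40), Meis2 (2.01 and 1.59), Etv1 (1.08 and 0.98) and Foxp2 (3.01 and 2.94). Robo2, a receptor for the repellent Slit, was higher by log2 ratios of 2.74 and 2.39, and Erbb4, a neuregulin receptor that guides migrating interneurons, by 4.13 and 3.15. Plxna4, which receives class 3 semaphorins together with neuropilins, was higher by 3.01 and 2.74, while Plxnb2 was near equal at -0.029 and 0.13. The reelin receptors Lrp8 (1.30 and 0.94) and Vldlr (1.82 and 1.16) were both higher, and so was St8sia2 (1.42 and 1.40), which adds polysialic acid to the adhesion molecule Ncam1 (0.64 and 0.81). Dlx1, which acts early in the lineage, was within 1.5-fold at 0.16 and 0.002, and so was Sox11 at 0.27 and 0.20.

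The label post-mitotic was not borne out for all members. At least 3 of 10 genes of DNA replication and its onset (Pcna, Mcm2 to Mcm7, Tyms, Rrm2 and Pclaf) had a UMI in 23 control members (15.9%, 10.3 to 22.8) and 37 cKO members (14.9%, 10.7 to 20.0). After thinning to 1000 UMIs the counts were 2 and 9 cells. The rule excludes cells by genes of the later cycle phases, so cells that replicate DNA can remain, and the cells are called neuroblasts here without the word post-mitotic. At the other end, 3 or more of 8 mature neuron markers were found in 2 control members (1.38%) and 3 cKO members (1.21%).

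Clustering of the 393 members without the 18 rule genes gave 6 subgroups, described by leading genes that were picked after their values were seen. Subgroup 1 (116 cells) was led by Foxp2 (304 CPM against 29.0 CPM in the other members), Pbx3 (965 CPM against 147 CPM), Meg3 (2314 CPM against 570.3 CPM), Prokr2, the receptor for a chemoattractant of the olfactory bulb (156 CPM against 25.6 CPM), and Tshz1 (525 CPM against 134 CPM). Subgroup 2 (93 cells) was led by modestly higher genes, among them Tubb3 (2639 CPM against 1375 CPM) and Sp8 (353 CPM against 192 CPM), which took no part in the clustering, and Synpr (169 CPM against 83.9 CPM). Subgroup 3 (81 cells) was led by Erbb4 (236 CPM against 87.8 CPM), Parm1 and Sln.

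Subgroup 4 (68 cells) was led by DNA replication genes, with Pclaf at 314 CPM against 5.68 CPM and Rrm2 at 162 CPM against 2.53 CPM. Its leading genes also held Spock2 (314 CPM against 27.8 CPM) and Ly6c1 (202 CPM against 14.5 CPM), known from brain endothelium or its neighbours. At least 3 of the 10 replication genes were found in 60.3% of its cells, against at most 27.3% (subgroup 6) in any other subgroup, and its median depth of 8045 UMIs was above the 3730.5 to 5196 of the first 3. Subgroups 5 (24 cells) and 6 (11 cells) were led by genes of other cell types. In subgroup 5 these were the astrocyte gene Clu (1521 CPM against 54.1 CPM) and the microglial gene Cx3cr1 (869 CPM against 26.8 CPM), and in subgroup 6 it was the myelin gene Mal (4245 CPM against 45.3 CPM). The median cell of each subgroup still had 6 or 7 of the 7 neuroblast genes.

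Every subgroup held cells of both libraries. Subgroup 1 made up 23.4% of control neuroblasts (34 cells, 16.8 to 31.2) and 33.1% of cKO neuroblasts (82 cells, 27.2 to 39.3). Subgroup 4 made up 17.9% (26 cells) and 16.9% (42 cells). For each of subgroups 1 to 6 the 95% counting intervals of the libraries overlapped. The subgroups were formed from the same genes that are compared between the libraries, so these shares are a description.

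**Figure D3:**
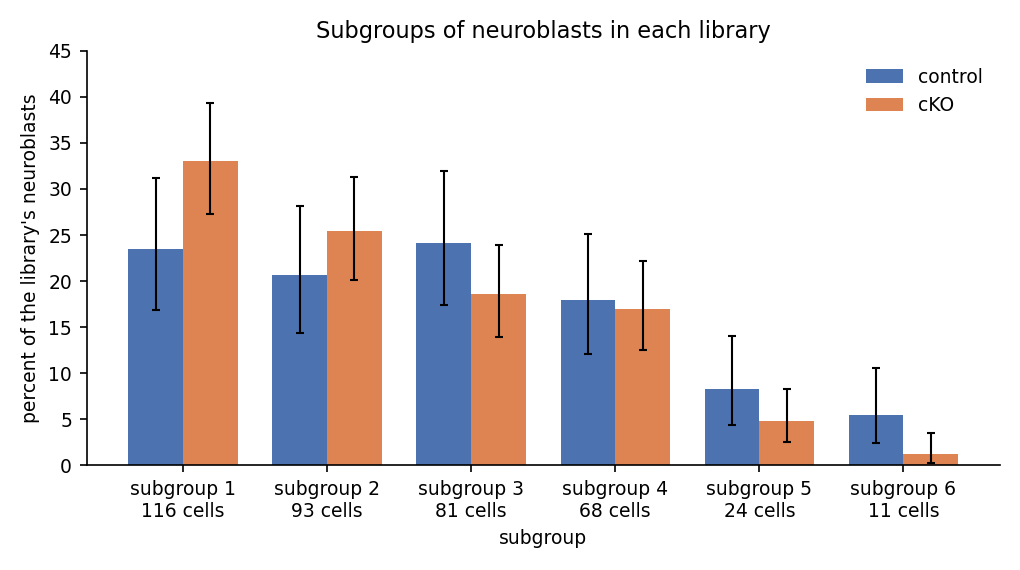
Percent of each library's neuroblasts in the 6 subgroups (bars from 0, with exact 95% binomial intervals that cover counting error only). The intervals of control and cKO overlap in all 6; subgroup 1 shows the widest gap, 23.4% against 33.1%.

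Markers of other cell types were present in some members and differed between the libraries, which bears on each library comparison that follows. A member was called mixed where the markers of 1 of 12 other cell classes made up over 0.5% of its UMIs, a limit set after the data were seen. It applied to 18 control members (12.4%) and 18 cKO members (7.26%), of which 8 and 11 were the doublets marked by Scrublet. Mature neurons were among the 12 classes. The ratio of a gene that is itself such a marker can shift by design when the mixed members are left out. The 8 microglial markers summed to 1631 CPM in control and 280.3 CPM in cKO over all neuroblasts, and to 494 and 168 CPM without the mixed members. They made up at most 2.56% in control and 1.77% in cKO of the UMIs of a member. The 8 oligodendrocyte markers summed to 2668 CPM in control and 679.6 CPM in cKO, and to 612 and 416 CPM without the mixed members, with at most 5.55% in control and 3.52% in cKO in a member. The 8 endothelial markers went the other way, at 48.5 CPM in control and 582 CPM in cKO, and at 50.9 and 121 CPM without the mixed members, with at most 0.0894% in control and 1.71% in cKO in a member and Kdr at 0 in control. The 8 astrocyte markers summed to 1234 CPM in control and 979 CPM in cKO, and to 589 and 459 CPM without the mixed members, with at most 1.75% in control and 1.498% in cKO in a member. In the median member each of these sums was at most 0.063% of UMIs. The 7 choroid plexus markers other than Ttr summed to 257 CPM in control and 56.3 CPM in cKO, with Kl, Clic6 and Prlr at 0 in cKO. Markers of T cells were nearly absent, with 7 of 8 at 0 in control and 6 of 8 in cKO, and 5 and 2 of 8 glioma or mesenchymal markers were at 0.

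Between the libraries, 177 of 6375 measured genes (2.78%) were at least 1.5-fold higher in cKO neuroblasts with an interval excluding equality, and 279 (4.38%) were lower. Without the mixed members 144 of 6112 (2.36%) were higher and 158 (2.59%) lower. These are counts of 2 libraries, not of a tested effect of genotype. The median log2 ratio of all measured genes was 0.017. Below, a gene past the limit is one at least 1.5-fold apart with an interval that excludes equality and a mean of at least 20 CPM. A gene that is low in 1 library reaches that mean only if it is high in the other, so counts of such genes are no support for a direction.

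The interferon-inducible gene Ifi27 stood at the upper end in neuroblasts. It had 39 UMIs (51.1 CPM) in control and 364 UMIs (253 CPM) in cKO neuroblasts, a log2 ratio of 2.31 (1.83 to 2.82). It was detected in 22.8% of control and 58.1% of cKO members, and in 4.83% and 25.8% of members thinned to 1000 UMIs, with thinned intervals of 1.96 to 9.69% in control and 20.5 to 31.7% in cKO. Ifi27 (ENSMUSG00000064215, chr12:103434211-103440239, plus strand) encodes a small membrane protein of mitochondria and the nuclear envelope that interferon induces. Its log2 ratio was 2.29 without the mixed members. The 5 highest cells held 25.6% of control and 14.3% of cKO UMIs, so the difference was spread over many cells.

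Within the subgroups, Ifi27 was higher in cKO in each of subgroups 1 to 4. Subgroup 1 held 3 mixed members and subgroup 4 held 4. In subgroup 1 it stood at 56.3 CPM in control and 179 CPM in cKO, and in subgroup 2 at 73.1 and 276 CPM. Subgroup 3 had 52.7 and 243 CPM, and subgroup 4 had 30.5 and 288 CPM. The control values rest on between 6 and 10 UMIs each.

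Ifi27 was also higher in the cKO library in other cell classes, by different amounts. The log2 ratio was 1.67 (1.24 to 2.12) in cycling neuroblasts, 1.21 (1.12 to 1.30) in astrocytes and 1.05 in ependymal cells. It was 0.49 in oligodendrocytes, 0.17 in microglia and 0.15 in endothelial cells. The interval in neuroblasts overlapped that of cycling neuroblasts and lay above those of the other 5 classes, a difference in size that was not tested across animals. In thinned control cells the share with a UMI was 4.83% in neuroblasts and 5.77% in cycling neuroblasts, against 10.8% in astrocytes and 25.1% in ependymal cells. In thinned cKO cells it was 25.8% in neuroblasts, with the other classes between 15.6% (oligodendrocytes) and 43.8% (ependymal cells).

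Free RNA in the droplets can add UMIs of this gene. The cKO barcodes with 1 to 100 UMIs, which mostly hold free RNA, had Ifi27 at 256 CPM, close to the 253 CPM of cKO neuroblasts. In the same barcodes Cldn5, an endothelial gene, stood at 700.4 CPM against 125 CPM in cKO neuroblasts. The control table holds no such barcodes, so the like value for control was not measured, and the part of free RNA in the Ifi27 difference was not tested.

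The 32 genes of the interferon response list, Ifi27 included, summed to 177 CPM in control and 668 CPM in cKO neuroblasts. Of these genes 4 reached the measured level, and all 4 were higher in cKO, beside 2.78% of all measured genes, with a median log2 ratio of 2.10 over all members and 2.10 without the mixed ones. Only Ifi27 was above 20 CPM in both libraries, and the other 3 reached the mean only through cKO. Irf9, a transcription factor that carries interferon signals to the nucleus, had 8 UMIs (10.5 CPM) in control and 46 UMIs (32.0 CPM) in cKO neuroblasts, a log2 ratio of 1.61 (0.51 to 2.90). Ifitm3, a membrane protein that blocks virus entry, had 5 UMIs (6.55 CPM) in control and 79 UMIs (55.0 CPM) in cKO neuroblasts, 3.07 (1.78 to 4.73), and stood at 2.10 without the mixed members. Endothelial cells, whose markers were higher in cKO members, had Ifitm3 at 946 and 1768 CPM, and the part of their RNA in the Ifitm3 difference was not tested. These genes rest on 8 and 5 control UMIs, and Ifitm3 had 100% of control and 41.8% of cKO UMIs in 5 cells. In members chosen by the same rule after thinning to 1000 UMIs, Ifitm3 turned lower in cKO, at -0.65. Fewer cells show mitosis genes at that depth, so members chosen that way can include cycling neuroblasts. Cycling neuroblasts had Ifitm3 at 84.4 CPM in control (53 UMIs in 6 cells) and 26.9 CPM in cKO. The part of these cells in the turn was not tested. Thinned to 1000 UMIs, Irf9 was found in 1.38% and 2.42% of control and cKO neuroblasts and Ifitm3 in 2.07% and 4.84%, so the shares at equal depth were within counting error. In the other classes the list summed to 362 and 487 CPM (control and cKO) in cycling neuroblasts, 518 and 1412 CPM in astrocytes and 388 and 686 CPM in oligodendrocytes. It summed to 1320.2 and 3663 CPM in microglia, 3568 and 6217 CPM in endothelial cells and 1445 and 4259 CPM in ependymal cells.

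The type I interferon receptor genes stayed within 1.5-fold. Ifnar1 had 35 UMIs (45.9 CPM) in control and 71 UMIs (49.4 CPM) in cKO neuroblasts, a log2 ratio of 0.11, and Ifnar2 had 27 UMIs (35.4 CPM) in control and 66 UMIs (45.9 CPM) in cKO neuroblasts, 0.38. Of the type II pair, Ifngr1 had 35 UMIs (45.9 CPM) in control and 20 UMIs (13.9 CPM) in cKO neuroblasts and was lower in cKO by more than 1.5-fold (-1.72, -2.59 to -0.89), moving to -0.58, within the limit, without the mixed members. Of 8 measured genes in this list of receptors and signalling genes 1 was lower and none higher, beside 4.38% of all measured genes lower. None of the 5 measured genes of MHC class I presentation passed the limit. The proteasome activator Psme2 had 61.6 and 87.6 CPM (0.51) and the class I light chain B2m had 94.4 and 64.7 CPM (-0.54 over all members and 0.087 without the mixed ones).

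**Figure D4:**
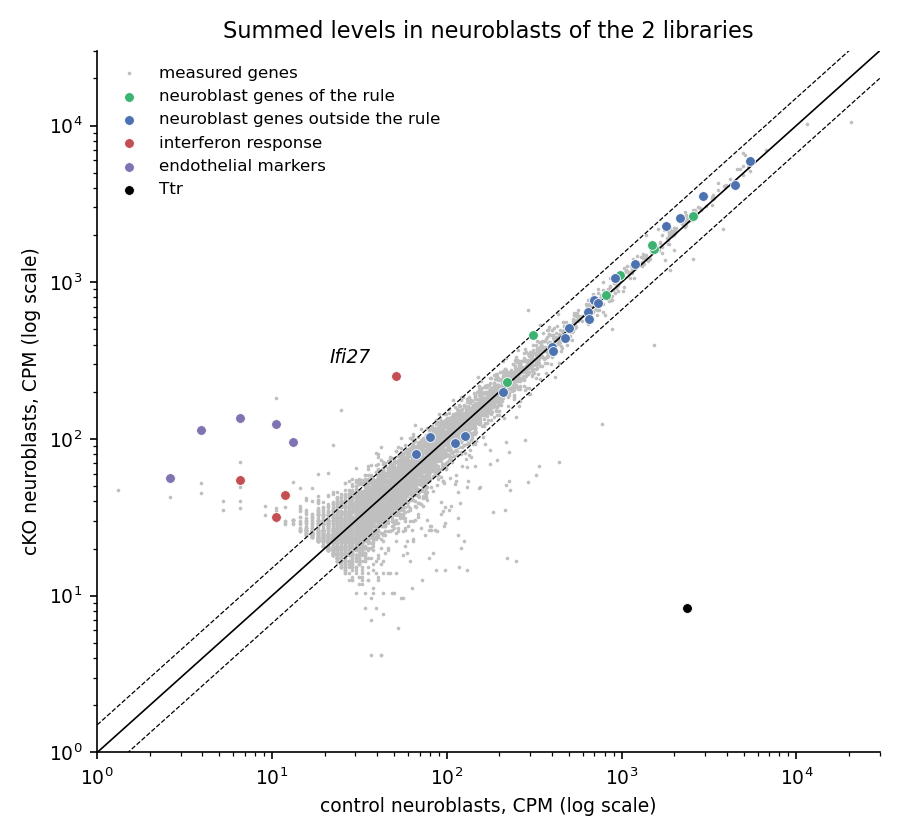
Summed levels of measured genes in control (x axis) and cKO (y axis) neuroblasts, in CPM on log scales, for genes with a UMI in both; the solid line is equality and the dashed lines are 1.5-fold. Neuroblast genes lie along the line, Ifi27 (51.1 against 253 CPM) and the endothelial markers lie above it, and Ttr (2365 against 8.35 CPM) lies far below it.

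Genes of neuroblast identity and lineage lay within the limit between the libraries. None of the 20 neuroblast genes outside the rule passed the limit in either direction, with a median log2 ratio of 0.023 and a range from -0.28 (Pcsk1n) to 0.35 (Runx1t1). Sox11, a transcription factor of young neurons, had 1373 UMIs (1799.8 CPM) in control and 3304 UMIs (2298 CPM) in cKO neuroblasts (0.35, 0.26 to 0.44), and the tubulin Tubb2b had 2236 UMIs (2931 CPM) in control and 5137 UMIs (3573 CPM) in cKO neuroblasts (0.29, 0.21 to 0.36), both higher in cKO by less than 1.5-fold. The tubulin-binding Stmn1 had 5428 and 5956 CPM, and the cyclin Ccnd2 had 4466 and 4194 CPM. Likewise none of the 19 measured GABAergic lineage genes was past the limit, with a median of 0.12. Foxp2, which marks subgroup 1, had 49 UMIs (64.2 CPM) in control and 137 UMIs (95.3 CPM) in cKO neuroblasts, 0.57 (0.089 to 1.07), and Meis2 had 2006 and 2064 CPM at a log2 ratio of 0.042.

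A few progenitor and cell-cycle genes were higher in cKO over all members, and none of these stayed past the limit without the mixed members. The share of all measured genes that were higher over all members was 2.78%. Of 10 measured progenitor genes 3 were higher in cKO: the filament protein Vim with 115 UMIs (151 CPM) in control and 356 UMIs (248 CPM) in cKO neuroblasts (0.72, and 0.55 without the mixed members), the signalling regulator Rgs16 with 31.5 and 53.6 CPM (0.77 and 0.67), and the inhibitor of differentiation Id3 with 13.1 and 52.9 CPM (2.01 and 1.43). Id3 had 80% of control and 80.3% of cKO UMIs in 5 cells. Of 13 measured cell-cycle genes outside the rule 3 were higher: the chromatin protein Hmgb2 with 261 UMIs (342 CPM) in control and 767 UMIs (534 CPM) in cKO neuroblasts (0.64, 0.44 to 0.85), the replication factor Pclaf with 64.2 and 107 CPM (0.74) and the nucleotide reductase subunit Rrm2 with 32.8 and 55.0 CPM (0.75). Without the mixed members they were at 0.47, 0.50 and 0.48, none past the limit. In cells chosen by the same rule after thinning to 1000 UMIs, all 3 turned lower in cKO, at -0.44 (Hmgb2), -0.90 (Pclaf) and -0.66 (Rrm2). Among cells that met its other conditions, the thinned rule left out 5 of 148 (control) and 15 of 251 (cKO) for mitosis genes. At full depth the same rule left out 52 of 197 and 69 of 317. Members chosen after thinning can thus include cycling neuroblasts, and the part of this in the 3 values was not tested.

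In the Notch pathway, which keeps progenitors undifferentiated, 2 of 5 measured genes were higher in cKO, beside 2.78% of all measured genes. Hes6, which counters Notch targets and favours differentiation, had 50 UMIs (65.5 CPM) in control and 176 UMIs (122 CPM) in cKO neuroblasts (0.90, 0.44 to 1.38), and the receptor Notch1 had 36 UMIs (47.2 CPM) in control and 107 UMIs (74.4 CPM) in cKO neuroblasts (0.66, 0.10 to 1.24). Without the mixed members Notch1 stood at 0.66 and Hes6 at 0.58, the latter just under 1.5-fold, while the Notch target Hes5 went to -1.12 and was lower. Among 10 measured inhibitors of the cell cycle and p53 targets none passed the limit, with the anti-proliferative Btg1 at 1979 and 2037 CPM and Cdkn1b at 324 and 339 CPM. None of 6 measured apoptosis genes did either.

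Few genes of mature neurons reached the measured level. Among all measured genes 4.38% were lower over all members, and 2.36% were higher without the mixed ones. Of 6 measured mature neuron genes 2 were lower and none higher in cKO over all members, while without the mixed members 2 were higher (Syt1 and Snhg11) and none lower. Mature neurons were among the classes that defined mixed members, with Snap25 and Syt1 as markers. Their markers marked 1 control member and 0 cKO members as mixed, and that control member held 52.1% of the control UMIs of these markers. The changes of Snap25 and Syt1 without the mixed members thus follow in part from that choice. The synaptic vesicle fusion protein Snap25 had 80 UMIs (105 CPM) in control and 81 UMIs (56.3 CPM) in cKO neuroblasts (-0.90), with 63.8% of control and 29.6% of cKO UMIs in 5 cells, and turned to 0.19 without the mixed members. The non-coding RNA Snhg11 went from -0.64 to 1.77, and Syt1, a calcium sensor of vesicle release, from -0.22 to 0.93. Calb2, the calcium-binding protein of one bulb interneuron type, had 28 UMIs (36.7 CPM) in control and 14 UMIs (9.74 CPM) in cKO neuroblasts (-1.91, and -2.18 without the mixed members), with 5 cells holding 96.4% of control and 71.4% of cKO UMIs. The direction of Calb2 turned to 0.58 when at least 4 of the 7 neuroblast genes were required, to 0.70 in members chosen after thinning, and to 0.56 with cells of mature neuron markers removed. Synpr, a synaptic vesicle protein, had 65 UMIs (85.2 CPM) in control and 161 UMIs (112 CPM) in cKO neuroblasts (0.39, -0.03 to 0.83) and was found in 31.7% of control and 29.8% of cKO cells. Of 14 genes of bulb interneuron subtypes only these last 2 were measured.

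Among transmitter receptors and chloride carriers 1 of 8 measured genes was past the limit, beside 2.78% of all measured genes higher and 4.38% lower. That gene was Slc12a2, which imports chloride and so helps to make GABA excitatory in young neurons, with 61 UMIs (80.0 CPM) in control and 40 UMIs (27.8 CPM) in cKO neuroblasts, -1.52 (-2.14 to -0.92), and -0.84 without the mixed members, where it was not past the limit. The glutamate receptor subunit Gria2 had 528 and 538 CPM, within the limit.

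Guidance receptors of migrating neuroblasts lay mostly within the limit, as did all measured genes, with 2.78% higher and 4.38% lower. None of 5 measured plexins and neuropilins passed the limit: Plxna2 had 104 and 147 CPM (0.50, 0.12 to 0.89), Plxna4 142 and 131 CPM (-0.11) and Plxna3 34.1 and 36.2 CPM (0.086). None of 5 measured semaphorins did, with Sema6d at 52.4 and 34.1 CPM (-0.62, -1.25 to 0.019), Sema6c at 41.9 and 50.8 CPM and Sema4g, of the class that Plexin-B receptors bind, at 24.9 and 17.4 CPM. Of 12 other guidance receptors 1 was higher, the ephrin receptor Epha5 with 8 UMIs (10.5 CPM) in control and 43 UMIs (29.9 CPM) in cKO neuroblasts, where 5 cells or fewer held all control UMIs. Without the mixed members its mean was under 20 CPM and the call was lost. Erbb4 had 106 UMIs (139 CPM) in control and 145 UMIs (101 CPM) in cKO neuroblasts (-0.46, -0.83 to -0.087), Robo2 224 and 217 CPM (-0.047), and Lrp8 177 and 159 CPM (-0.16).

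Adhesion genes held 3 past the limit among 11 measured, beside 2.78% of all measured genes higher and 4.38% lower. Integrin beta 1 (Itgb1), which neuroblasts use to hold their chains, had 82 UMIs (107 CPM) in control and 103 UMIs (71.6 CPM) in cKO neuroblasts (-0.59, -1.02 to -0.15, and -0.68 without the mixed members), lower in cKO in both. Integrin alpha 6 (Itga6) was higher with 9 UMIs in control and 42 in cKO, and without the mixed members its mean was under 20 CPM and the call was lost. Nfasc, a protein of myelinated axons and myelin, was lower with 39 and 20 UMIs and went from -1.88 to 0.29 without the mixed members. Ncam1 had 906 and 996 CPM (0.14), and the polysialic acid enzyme St8sia2 had 102 and 106 CPM (0.058).

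Genes of the cytoskeleton, which drives movement, held 2 past the limit. None of 18 measured actin motility genes was past the limit. Tmsb10, which binds actin monomers, had 4939 and 6675 CPM (0.43, 0.38 to 0.49), and the actin gene Actg1 had 1608 and 2176 CPM (0.44, 0.34 to 0.53), both higher in cKO by less than 1.5-fold. Of 16 measured tubulin and microtubule genes 2 were lower in cKO, beside 4.38% of all measured genes. Cdk5, a kinase that neuroblasts need to migrate, had 50 UMIs (65.5 CPM) in control and 54 UMIs (37.6 CPM) in cKO neuroblasts (-0.80, -1.39 to -0.22, and -0.78 without the mixed members). Tubb4a, a tubulin that oligodendrocytes also express, had 218 and 95.3 CPM (-1.19 and -0.56). Tuba1a had 3895 UMIs (5106 CPM) in control and 9312 UMIs (6477 CPM) in cKO neuroblasts (0.34, 0.29 to 0.40).

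Among metabolic and stress genes, 4 of 16 measured genes of glycolysis and hypoxia, 2 of 11 immediate early genes and 1 of 11 chaperones were past the limit, beside 2.78% of all measured genes higher and 4.38% lower. None of 21 genes of oxidative phosphorylation was past it, with a median log2 ratio of 0.068. In the glycolysis list Ldha was higher in cKO with 27 UMIs (35.4 CPM) in control and 85 UMIs (59.1 CPM) in cKO neuroblasts (0.74, 0.10 to 1.42, and 1.01 without the mixed members). In the same list the glucose carrier Slc2a1 went from 1.76 to 0.59 without the mixed members, Vegfa from -1.24 to -0.65, and Hk2 from -3.33 to -2.07, with none of these 3 past the limit there. Of the immediate early genes Fos was higher with 30 UMIs (39.3 CPM) in control and 98 UMIs (68.2 CPM) in cKO neuroblasts (0.79, 0.19 to 1.43, and 0.71), and Klf2, which endothelial cells express, went from 1.70 to -0.43. Of the chaperones Hspa1b was lower, with 28 UMIs in control and 10 in cKO, a call that was likewise lost without the mixed members.

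Genes by which neuroblasts could signal to microglia, and their growth factor receptors, also lay mostly within the limit. Over all members 4.38% of all measured genes were lower. None of 6 measured ligands for microglial receptors passed the limit over all members. Ptn had 225 UMIs (295 CPM) in control and 306 UMIs (213 CPM) in cKO neuroblasts (-0.47, -0.72 to -0.22) and stood at -0.66 without the mixed members, past the limit there. App had 308 and 255 CPM (-0.28). Of 7 measured growth factor and trophic receptors Tgfbr1, which microglia express, was lower with 97.0 and 52.2 CPM (-0.89, and -0.29 without the mixed members). The neurotrophin receptor Ntrk2 had 93.1 and 114 CPM and went from 0.29 to 0.77, past the limit without the mixed members.

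**Figure D5:**
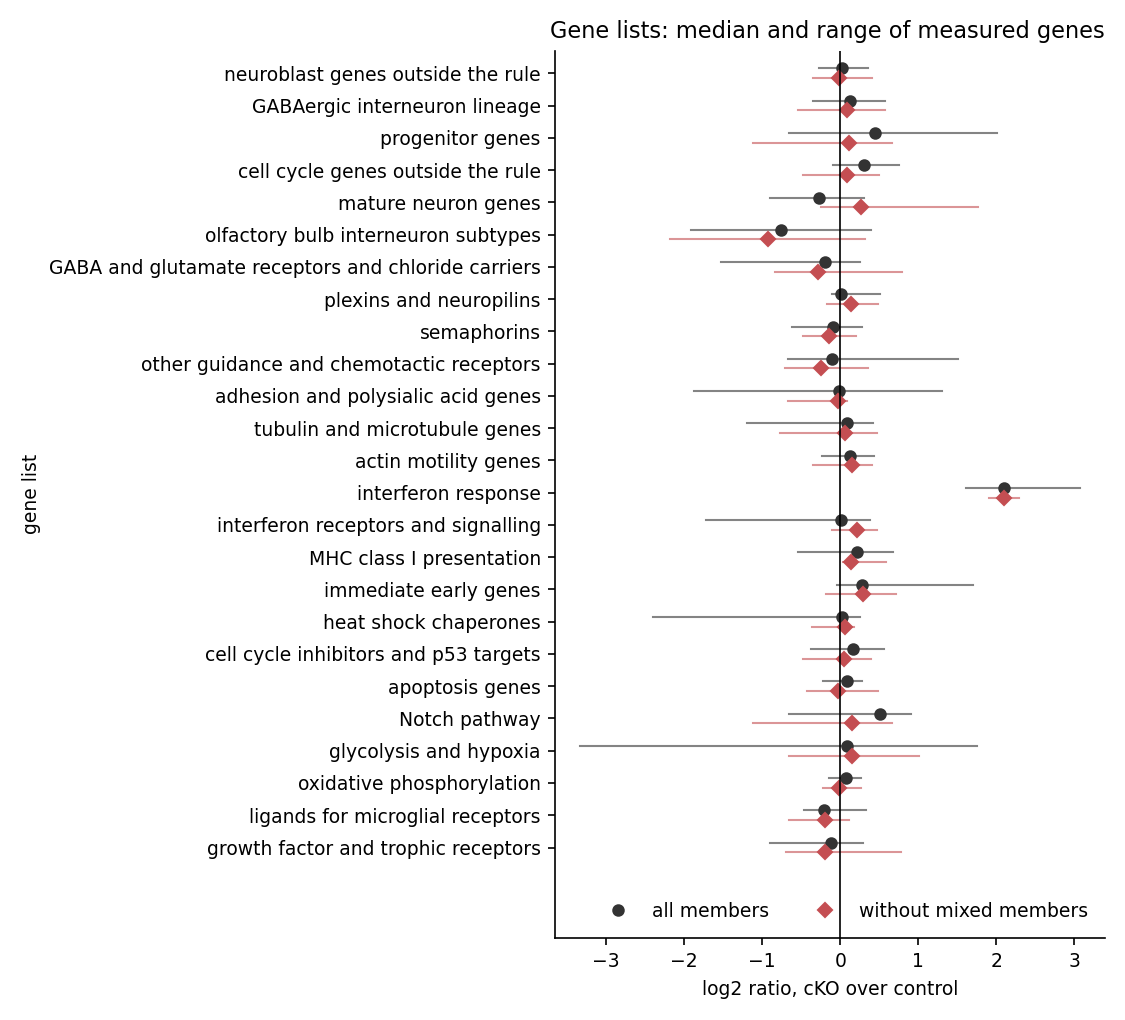
Median (symbol) and range (line) of the log2 ratio of cKO over control for the measured genes of 25 lists, over all members (black circles) and without the mixed members (red diamonds). The interferon list has a median of 2.10 in both, the other medians lie within 1 log2 unit of 0, and several ranges narrow without the mixed members.

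The genes at the ends of the comparison were mostly those of other cell types. Ttr, the thyroid hormone carrier that choroid plexus secretes, had 1804 UMIs (2365 CPM) in control and 12 UMIs (8.35 CPM) in cKO neuroblasts and was detected in 100% of control and 2.42% of cKO members. Other classes of the control library had it as widely. Thinned to 1000 UMIs, it had a UMI in 71.0% of control neuroblasts and in 50% to 79.5% of the cells of the other classes in control, and in at most 1.25% of any class in cKO. Of the 12 lowest ratios, the others were microglial, macrophage or glial genes. Cx3cr1 had 190 UMIs (249 CPM) in control and 24 UMIs (16.7 CPM) in cKO neuroblasts (-3.90, and -2.54 without the mixed members), and Trem2 had 118 and 15.3 CPM (-2.95 and -2.31). The myelin genes Mal (-2.62) and Ermn (-2.57) and Ptgds (-2.64) went to -0.73, -0.45 and -0.75. Cx3cr1, Mal and Ermn are among the markers that defined mixed members, so their change follows in part from that choice. Cryab, Gjc3, Selplg, Ctss, Tspan2 and Il33 made up the rest, between -3.66 and -2.53.

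At the upper end, 10 of the 12 places were filled by genes known from brain endothelium or its neighbours, beside Ifi27 and Ifitm3. Flt1, a receptor for vascular endothelial growth factor, had 5 UMIs (6.55 CPM) in control and 196 UMIs (136 CPM) in cKO neuroblasts, with 100% of control and 92.3% of cKO UMIs in 5 cells, and its log2 ratio went from 4.38 to 1.69 without the mixed members. The chemokine Cxcl12 went from 4.13 to 0.21, and to -1.13 in members chosen after thinning. Without the mixed members Spock2 went from 2.61 to 0.053 and Pltp from 2.04 to -0.069. Itm2a, Slco1a4, Ctla2a, Cldn5, Ly6a and Ly6c1 stood between 2.87 and 4.86 over all members and between 1.12 and 2.63 without the mixed ones. Flt1, Itm2a, Slco1a4, Cldn5 and Ly6c1 are among the markers that defined mixed members, so their fall follows in part from that choice. Endothelial cells made up 909 of the kept control cells and 1265 of the kept cKO cells. Beyond leaving out the mixed members, the part of other cells' RNA in these ratios was not tested.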

How the data were processed

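Single-cell libraries were made with 10x Genomics 3′ chemistry from 1 control and 1 cKO host. The deposited matrices hold whole-number UMI counts per gene and barcode, made by the authors with Cell Ranger 7.1.0 on mm10, per the submitters' processing notes and, for the software, per the file headers. The control matrix holds barcodes of at least 500 UMIs and the cKO matrix holds all barcodes.

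Cells, members and mixed members were chosen as the report states. UMIs were summed over the members of each library, and the log2 ratio of CPM was given with an exact conditional Clopper-Pearson 95% interval. Genes with a mean of at least 20 CPM were measured, and the 1.5-fold limit is a rule of size, not a test. A count of 0 was set to 3 counts in ratios. Thinning kept 1000 UMIs of each cell at random. PCR copies are collapsed by UMIs, and intervals cover counting error only, so a gene with few UMIs has a wide interval. Genotype cannot be told apart from animal or library. Members were clustered with scanpy 1.11.5 and leidenalg 0.10.2 (1000 variable genes, 15 components, resolution 0.8). Other cell classes were assigned from marker genes. Some genes of the lists are counted but not reported here by name. Calculations in scipy 1.17.1 (Python 3.11.15) were tested on simulated data, and tables were handled in pandas 2.3.3 and numpy 2.4.6. Of 32285 gene identifiers 99.6% were in GENCODE vM21.

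The members and the gene lists were chosen with earlier results of these data known. Genes were named by a rule: the 18 rule genes, the 20 with the highest ratio of members over other cells at 100 CPM or more in both libraries, the 12 highest and 12 lowest ratios between the libraries among genes that reached 50 CPM, 30 UMIs and 5% of members in 1 library, up to 4 genes of each list by ratio and up to 3 by level, and Plxnb2. Mitochondrial, ribosomal, hemoglobin, immunoglobulin, sex-linked and predicted genes were left out of the ranked parts. The mixed members were defined, and left out as an alternative, after the data were seen. Other alternatives changed the depth floor, the mitochondrial limit, the marker conditions, doublet removal, the level minimum and the scaling.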

Additional observations from a re-analysis of the deposited data

Results flagged for a closer look

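Neuroblast signal was also present in barcodes that no comparison used. Among cKO barcodes with at least 500 and fewer than 1000 UMIs, 6 met the marker conditions of the rule, as did 3 in control. The cKO barcodes with 1 to 100 UMIs held Stmn2 at 82.7 CPM and Dlx6os1 at 35.2 CPM, against 2659.9 and 1621 CPM in cKO neuroblasts. The control table has no barcodes that small, and the source of these UMIs was not tested.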

How the results depend on the processing

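The cKO share of neuroblasts stayed above the control share under each of 11 alternatives, by 2.32 to 3.77 percentage points. The highest value, 3.77, came with a mitochondrial limit of 5%. The number of genes lower in cKO neuroblasts was 172 with none of the 5 other-class genes allowed and 158 without the mixed members, against 279. With a minimum of 50 CPM, 59 genes were higher and 126 lower, and with no minimum 346 and 638, since fewer or more genes were then counted. The log2 ratio of Ifi27 lay between 2.02 and 2.40 over its alternatives. Over the alternatives, 1258 log2 ratios of 90 named genes were classed as the same and 147 as moved, and 22 values turned in sign. For the medians of 24 lists, 360 values were classed as the same and 21 as moved. With at least 4 of the 7 neuroblast genes required, Snap25 stood at 0.25, Snhg11 at 1.51 and Calb2 at 0.58. With no other-class gene allowed, Pltp stood at -0.58 and Klf2 at -1.17. With the rule applied to thinned cells, Cxcl12 stood at -1.13, Ifitm3 at -0.65, Pltp at -0.013, Hmgb2 at -0.44, Rrm2 at -0.66, Pclaf at -0.90, Snap25 at 0.13, Calb2 at 0.70 and Klf2 at -0.36. Fewer cells are left out for mitosis genes at that depth, so the members chosen that way can include cycling neuroblasts. With doublet calls removed, Pltp stood at -0.063 and Klf2 at -0.48, and with mature neuron markers removed Calb2 stood at 0.56. Without the mixed members Pltp stood at -0.069, Snap25 at 0.19, Snhg11 at 1.77, Nfasc at 0.29 and Klf2 at -0.43. The cause was not tested in any of these. The summed UMIs limit genes under about 20 CPM, which have fewer than 30 UMIs in either library. No paired analysis was possible because each group has 1 library and the groups share fewer than 2 replicate numbers.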

Other observations

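Sp8 was found in members with and without the genes that lead subgroup 1. Among members with a UMI of at least 2 of Foxp2, Pbx3 and Tshz1, Sp8 was found in 33 of 57 control cells (57.9%, 44.1 to 70.9) and 52 of 108 cKO cells (48.1%, 38.4 to 58.0). Among members with fewer than 2, it was found in 47 of 88 (53.4%, 42.5 to 64.1) and 87 of 140 (62.1%, 53.6 to 70.2). The genes of this comparison were chosen after their values were seen, and the intervals cover counting error only. Thinned to 1000 UMIs, the shares with Sp8 were 22.8% and 20.4% in the former cells and 22.7% and 20.7% in the latter. Markers of bulb interneuron types were rare, with Th, Calb1 or Calb2 in 6 control cells (4.14%) and 13 cKO cells (5.24%).

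Of cells that met the neuroblast and other-class conditions, 52 of 197 (26.4%) in control and 69 of 317 (21.8%) in cKO had more than 2 mitosis genes. Thinned to 1000 UMIs the counts were 5 of 148 (3.38%) and 15 of 251 (5.98%), so the order of the libraries turned with depth and none is read from it.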
